A study of Mus musculus with 2 samples.

Results

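The genes described here are the interferon response and innate sensor genes of the mouse, taken as the protein-coding genes whose symbol is that of an interferon receptor chain (Ifnar, Ifngr), an interferon regulatory factor (Irf), a Toll-like receptor (Tlr), or a member of the Ifit, Ifitm, Ifi, Oas, Mx or Isg families. The rule uses names only and no measured value. It found 71 genes, out of 21474 protein-coding genes, 43346 Ensembl genes and 69691 rows in a gene table. A further 4 names matched but are not annotated as protein coding, and they were left out.

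Total RNA was measured in the liver of healthy embryos of the strain B6NCrl at embryonic day 16.5, with no treatment and no second condition. The 1 group, E16.5 liver, held 2 biological replicates, each 1 library from pooled male and female embryos, with 41 embryos named for replicate 2 and no number for replicate 1. Each library was made from 10 ng of RNA longer than 200 nt, and the depth was 44477766 expected counts for replicate 1 and 48820712 for replicate 2. Both pools carry the same donor identifier in the labels, so the SD of the libraries may be partly technical, and 1 library against 1 allows no p-value. Levels are in TPM, a read-based abundance corrected for transcript length and scaled to the same sum in each library, and are given for both libraries and as the mean ± SD with n = 2.

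Interferons are secreted proteins that a cell makes when its sensors, such as the Toll-like receptors, meet microbial or misplaced nucleic acid. They bind receptor pairs at the cell surface, Ifnar1 with Ifnar2 for type I interferons and Ifngr1 with Ifngr2 for interferon gamma, and the bound kinases of the JAK family phosphorylate STAT proteins. Irf9 and Stat2 belong to the complex that binds the interferon-stimulated response element, and STAT dimers bind the gamma-activated sequence, near genes that limit viral entry, translation and replication. In the fetal liver, hepatocytes develop beside blood-forming cells and macrophages, and some IFITM genes are known for high levels in stem and progenitor cells without added interferon.

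Promoter sequences of some members are shown because they hold the letters of the element to which the interferon-activated complex is known to bind. In RefSeq promoter windows (build GRCm38.p6, 250 bases before to 50 after the gene start), 60 of the 71 members had a window. The core searched for was GAAANNGAA or its reverse complement TTCNNTTTC, on both strands with overlaps allowed. It is written in capitals in the stretches below, each of which runs 5′ to 3′ on the gene's own strand.
Isg15: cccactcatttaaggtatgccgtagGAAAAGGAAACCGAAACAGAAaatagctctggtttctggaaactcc
Ifit1: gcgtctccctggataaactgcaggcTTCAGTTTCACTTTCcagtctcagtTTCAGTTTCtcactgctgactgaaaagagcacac
Ifit3: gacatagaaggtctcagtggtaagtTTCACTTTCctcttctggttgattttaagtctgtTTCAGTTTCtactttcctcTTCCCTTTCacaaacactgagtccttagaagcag
Oas1a: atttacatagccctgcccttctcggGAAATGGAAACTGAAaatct
Oas3: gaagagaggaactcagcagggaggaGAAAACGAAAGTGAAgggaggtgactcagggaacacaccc
Ifi203: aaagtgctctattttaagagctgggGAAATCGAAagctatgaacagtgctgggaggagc
Ifi207: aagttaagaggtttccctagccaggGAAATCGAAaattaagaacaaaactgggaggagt
Ifi211: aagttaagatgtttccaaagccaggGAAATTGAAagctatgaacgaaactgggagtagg
Ifitm2: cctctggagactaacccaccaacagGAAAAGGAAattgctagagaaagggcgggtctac
Ifitm3: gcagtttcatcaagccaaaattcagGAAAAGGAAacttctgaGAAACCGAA
Irf2: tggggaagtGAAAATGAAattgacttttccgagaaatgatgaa
These stretches lie at chr4:156200851-156200921 on the minus strand (Isg15), chr19:34640755-34640838 on the plus strand (Ifit1), chr19:34583349-34583460 on the plus strand (Ifit3), chr5:120907526-120907570 on the minus strand (Oas1a) and chr5:120777695-120777759 on the minus strand (Oas3). Those of the p200 family lie at chr1:173942494-173942552 on the minus strand (Ifi203), chr1:173741817-173741875 on the minus strand (Ifi207) and chr1:173913050-173913108 on the minus strand (Ifi211). The last 3 lie at chr7:140955974-140956032 on the minus strand (Ifitm2), chr7:141010717-141010767 on the minus strand (Ifitm3) and chr8:46739495-46739537 on the plus strand (Irf2). In Isg15, Ifit1, Oas1a and Oas3 the capitals run together because matches overlap.

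The core was present in the windows of 26 of the 60 members (43.3%), against 1650 of 17492 protein-coding genes with a window (9.43%). A window with 2 or more matches was found for 13 members, against 133 of those protein-coding genes. The families divided by role. The core was found in 5 of 6 IFIT genes, 8 of 10 p200 genes and 4 of 8 OAS genes, and in 1 of 8 interferon regulatory factors, 2 of 7 IFITM genes and none of the 4 receptor chains. It was also in 2 of 4 other Ifi genes (Ifi44 and Ifi44l), 1 of 3 Isg genes, 1 of 4 Toll-like receptors of the cell surface and 2 of 6 of endosomes. Of the p200 genes, Ifi203, Ifi206, Ifi207, Ifi208, Ifi213 and Ifi214 held the exact letters GAAATCGAA, which stood in 26 protein-coding genes in all (0.149%), and Ifi205 and Ifi211 held GAAATTGAA, which stood in 82 (0.469%). The IFIT and OAS cores were mostly of other letters. GAAACTGAA stood in Ifit1, Ifit3, Ifit3b, Ifit1bl2, Oas1a, Oas1g and Oas1c, and in Tlr8 and Tlr11, and in 115 protein-coding genes in all (0.657%). Several windows are not separate sequences. The stretch of Ifit3 is letter for letter that of Ifit3b, and the stretch of Ifit1 is the reverse complement of that of Ifit1bl2, whose window overlaps it on the other strand. Of the p200 genes, the 59-base stretches around the core are identical in Ifi208 and Ifi213 and differ from that of Ifi206 at 1 base, so the count of 8 p200 genes holds near copies. The 43-base stretch of Oas1g is letter for letter part of that of Oas1a. Oas1c holds the same run of capitals as its reverse complement, so the OAS count holds copies too. The core of the gamma-activated sequence, TTCNNNGAA, was in the windows of 15 of the 60 members, against 8.92% of protein-coding genes, and these included Ifnar1, Ifnar2, Irf1 and Irf8. A match is a run of letters and not a measured site, and nothing in these data bears on binding.

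**Figure D1:**
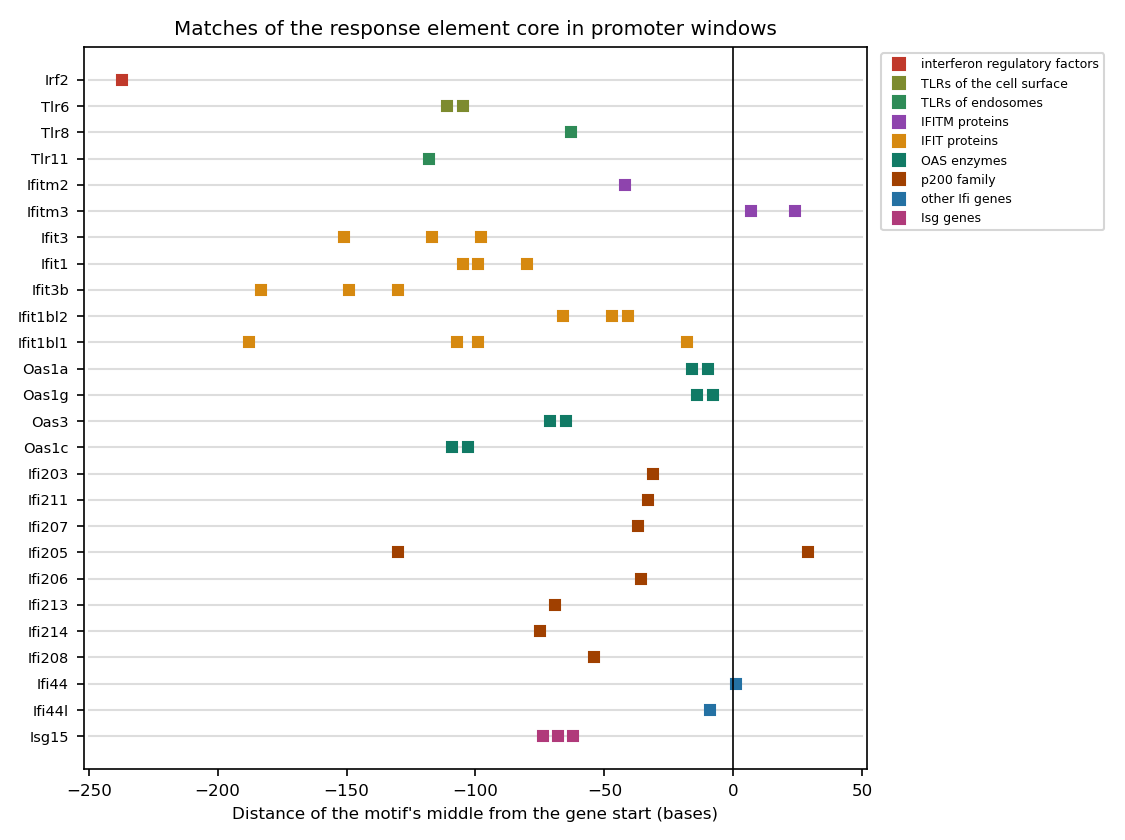
Position of each match of the response element core in the promoter windows of the 26 members that hold one. The horizontal axis is the distance of the middle of the match from the gene start in bases, each row is a gene, each square is a match and colours mark the families. The IFIT genes have 2 or more squares, and 7 of the 8 p200 genes shown have 1.

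The tissue label was checked against marker genes before the members were read. The 9 hepatocyte markers had a median of 5999 TPM in replicate 1 and 6502 TPM in replicate 2, with Afp at 13667 and 13629 TPM. Markers of erythroid cells (median 416 and 406 TPM), neutrophils (361 and 381 TPM) and macrophages (46.5 and 51.9 TPM) were all present. Of 9 markers of T and NK cells, 3 reached 1 TPM in both libraries, and Cd3e had no count. The 5 markers of neighbouring gut and pancreas summed to 2.45 TPM in replicate 1 and 11.02 TPM in replicate 2, and the 5 of bile duct to 23.85 and 39.99 TPM. All markers of both lists were higher in replicate 2. The widest gaps in TPM were those of Cpa1 (1.82 and 9.10 TPM), Krt19 (2.50 and 8.28 TPM) and Epcam (0.76 and 5.75 TPM). Whether those differences bear on any member was not tested.

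Of the 71 members, 36 (50.7%) reached 1 TPM in both libraries, against 52.2% of all protein-coding genes, a share near that background. A further 5 reached it in 1 library only, 30 stayed below it in both, and 5 of those 30 had no count at all. The median member stood at 1.00 TPM in replicate 1 and 1.35 TPM in replicate 2 (1.18 ± 0.247 TPM), against 1.41 and 1.57 TPM for all protein-coding genes (1.49 ± 0.113 TPM). Together the members held 0.105% of protein-coding TPM in replicate 1 and 0.117% in replicate 2. That sum was uneven. Ifitm2 alone made up 39.5 ± 1.28% of it, Ifitm2 with Isg20 51.6 ± 0.968%, and the 10 most abundant members 82.3 ± 0.480%. In bulk tissue a low level in every cell and a high level in few cells cannot be told apart.

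**Figure D2:**
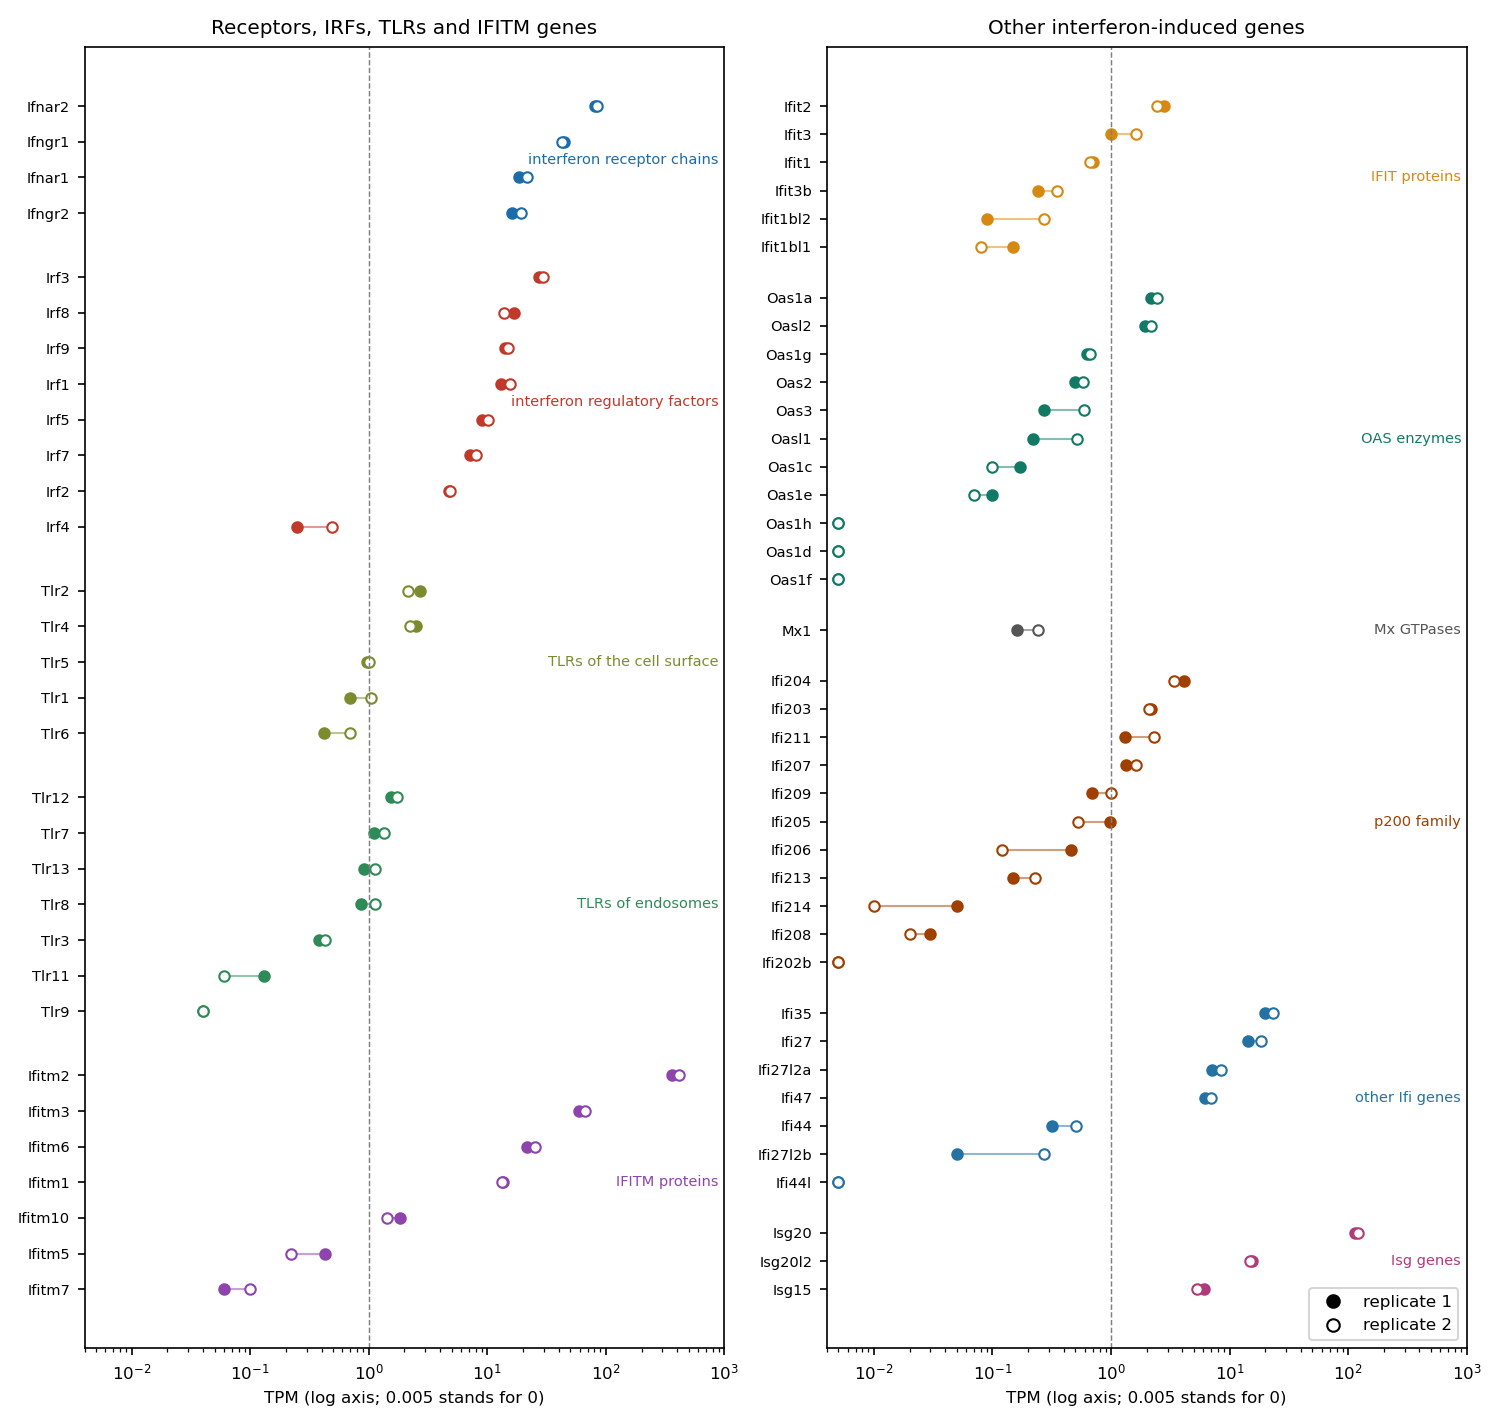
Level of 70 of the 71 members in TPM on a log axis, with replicate 1 as filled and replicate 2 as open circles, grouped by role. Genes with no count stand at 0.005 and the dashed line marks 1 TPM. The receptor chains, most interferon regulatory factors and 4 IFITM genes lie well to the right of the line, and the IFIT, OAS and p200 genes lie around it or to its left.

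At the start of the pathway, the interferons themselves were close to undetected. Of 21 ligand genes, among them Ifnb1, Ifng and the interferon alpha genes, 20 had no count in either library. A count of 0 allows up to between 0.0523 and 0.154 TPM in replicate 1 and between 0.0484 and 0.143 TPM in replicate 2, depending on gene length, if 3 counts are taken as the limit. The exception was Ifnk, an interferon known from keratinocytes, with 7 counts (0.24 TPM) in replicate 1 and 4 counts (0.12 TPM) in replicate 2.

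The 4 receptor chains were all expressed, with a median of 31.7 ± 0.633 TPM, and they made up 16.8 ± 0.710% of the members' TPM. Ifnar2, the chain of the type I receptor that binds interferon most tightly, had 81.72 TPM in replicate 1 and 83.51 TPM in replicate 2 (82.6 ± 1.27 TPM). Its partner Ifnar1 had 18.58 and 21.41 TPM (20.0 ± 2.00 TPM). Ifngr1, which binds interferon gamma, had 43.98 and 42.94 TPM (43.5 ± 0.735 TPM). Its partner Ifngr2 had 16.24 and 19.14 TPM (17.7 ± 2.05 TPM). In both receptors 1 chain was thus more abundant than its partner by more than the spread of the libraries, with Ifnar1 at 0.242 ± 0.0205 of Ifnar2 and Ifngr1 at 2.48 ± 0.329 times Ifngr2. Ifnar2, Ifnar1 and Ifngr2 lie within 192.8 kb of each other on chromosome 16 (chr16:91372783-91565623, GRCm38), and their order by level was Ifnar2, Ifnar1, Ifngr2. The mean ± SD ranges of the last 2 overlapped. Within each library Ifnar1 was the higher, by 2.34 TPM in replicate 1 and 2.27 TPM in replicate 2. The type III receptor, from a list outside the rule, had 1 chain at each end of the scale, with Ifnlr1, its specific chain, at 0.17 and 0.26 TPM and Il10rb, which it shares with interleukin-10 family receptors, at 28.50 and 29.35 TPM.

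The transcripts of Ifnar2 differ in the protein they encode, and the shorter one led. Ifnar2 is known to give both a membrane receptor and a shorter soluble form by alternative splicing. The transcript Ifnar2-203, of 1099 nt and annotated with a coding sequence of 248 amino acids, held 74.8% of the gene's TPM in replicate 1 and 73.9% in replicate 2. Ifnar2-201, of 3047 nt and 513 amino acids, held 18.6% and 20.2%, or 15.19 and 16.83 TPM. In reads the gap was smaller, as Ifnar2-203 took 2574 of the expected counts of replicate 1 and 2807 of those of replicate 2, and Ifnar2-201 took 1886 and 2257, since TPM divides by length. Ifnar1-201, the leading transcript of the partner chain, had 11.03 and 11.37 TPM, so Ifnar2-201 was 1.38 times as high as it in replicate 1 and 1.48 times in replicate 2. These ratios leave out Ifnar1-202, which encodes the same protein as Ifnar1-201, and so overstate any gap between the full-length chains. Ifnar1-201 held 56.2 ± 4.42% of Ifnar1, a transcript with a retained intron, Ifnar1-205, 21.6 ± 0.983%, and Ifnar1-202, which encodes the same 590 amino acids as Ifnar1-201, 20.4 ± 3.69%, or 3.30 and 4.92 TPM. Of Ifngr2, a transcript annotated for nonsense-mediated decay took 23.0% in replicate 1 and 34.2% in replicate 2. These shares are the deposited estimates of how reads divide among overlapping transcripts and were not checked by reads across junctions.

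The kinases and STAT proteins below the receptors were all above 1 TPM in both libraries. Jak1, which serves both receptors, had 42.46 TPM in replicate 1 and 42.15 TPM in replicate 2, whereas Tyk2, of the type I receptor, had 5.70 and 6.46 TPM and Jak2, of the interferon gamma receptor, 4.56 and 5.15 TPM. Stat3 stood at 28.70 and 34.21 TPM. Stat2, the partner of Irf9, stood at 5.27 and 5.98 TPM. All 7 negative regulators listed were expressed too, led by the phosphatases Ptpn6 (33.69 and 33.78 TPM) and Ptpn2 (25.93 and 23.64 TPM).

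**Figure D3:**
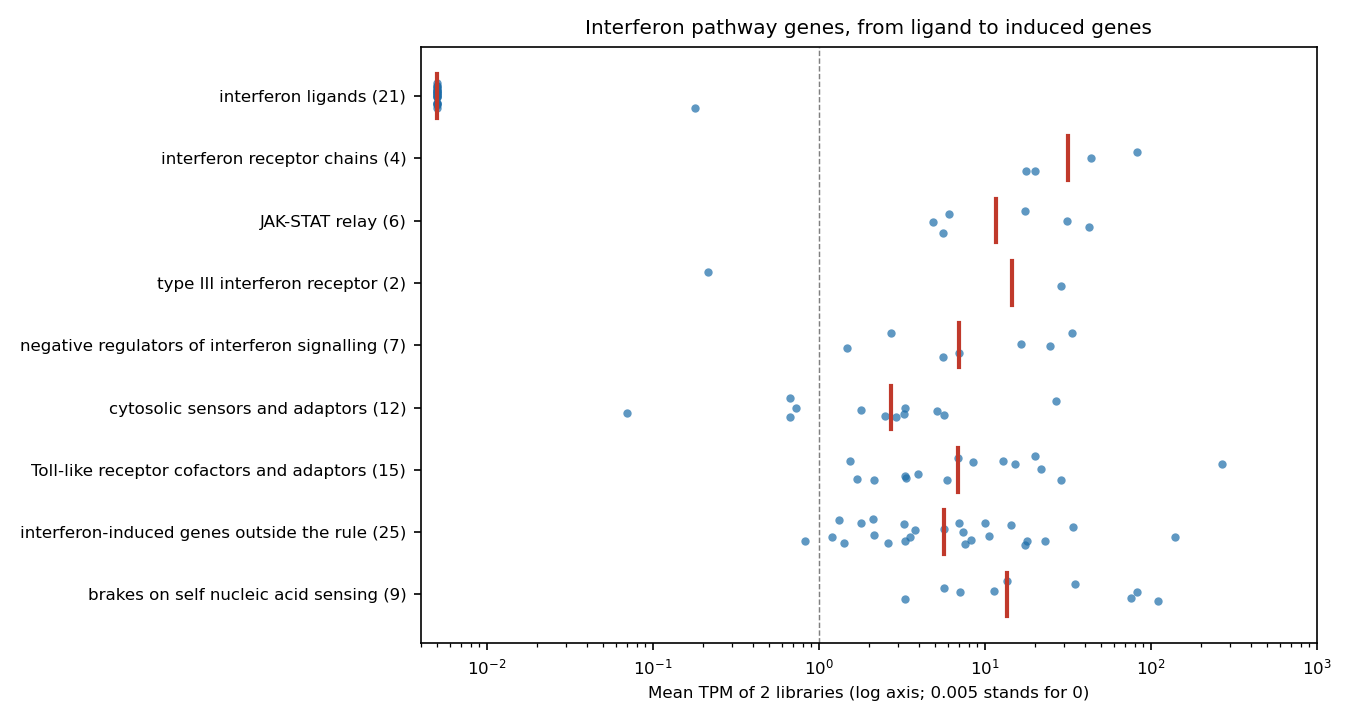
Mean TPM of the 2 libraries for the genes of the interferon pathway lists, on a log axis, from ligands at the top to induced genes and to brakes on self nucleic acid sensing at the bottom. Each point is a gene, the number of genes is in brackets, red bars are medians and the dashed line marks 1 TPM. The ligands stand at 0 except Ifnk, while the receptor chains have a median of 31.7 TPM and the JAK-STAT relay one of 11.8 TPM.

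The interferon regulatory factors, transcription factors that act both on interferon genes and on the genes interferon induces, were expressed in 8 of 9 cases, with a median of 9.62 ± 0.778 TPM. Irf3, the factor that waits in the cytoplasm for phosphorylation by Tbk1, was the highest at 27.05 TPM in replicate 1 and 29.76 TPM in replicate 2 (28.4 ± 1.92 TPM). Irf7, its relative that drives the later interferon alpha genes, had 7.16 and 8.06 TPM (7.61 ± 0.636 TPM), or 0.268 ± 0.0043 of Irf3. Irf9, the DNA-binding part of the complex with Stat2, had 14.01 and 15.00 TPM (14.5 ± 0.700 TPM), which was 2.58 ± 0.106 times Stat2.

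Irf8, a factor of macrophage and dendritic cell development, had 16.70 TPM in replicate 1 and 13.95 TPM in replicate 2 (15.3 ± 1.94 TPM). Irf4, its closest relative and a factor of lymphoid cells, was the only member of the family below 1 TPM, at 0.25 and 0.49 TPM, or 48 and 103 counts. Irf8 was thus 66.8 times Irf4 in replicate 1 and 28.5 times in replicate 2. Irf1, itself induced by interferon gamma, had 13.03 and 15.40 TPM (14.2 ± 1.68 TPM). Irf5, which acts below Toll-like receptors, had 9.07 and 10.17 TPM (9.62 ± 0.778 TPM). Irf2, a repressor at Irf1 sites, stood at 4.74 and 4.82 TPM. Irf8, Irf9 and Irf1 did not differ from each other beyond the spread of the libraries.

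Transcript shares of some of these factors differed between the libraries. The leading transcript of Irf1 was Irf1-202 in replicate 1, with 57.6% of the gene, and Irf1-201 in replicate 2, with 50.9%, and both encode the same 329 amino acids. Irf5-201 held 64.9% of Irf5 in replicate 1 and 89.7% in replicate 2. Of Irf7, Irf7-201 (33.1 ± 9.27%) led, and the transcript with a retained intron next to it, Irf7-210, held 20.6 ± 6.08%. Irf3 was spread over several transcripts, none above 25% in either library, and the first of them is of the older annotation only and has no type in the release used here. Over the 25 members at 1 TPM or more with several transcripts, the median share of the leading transcript was 74.4 ± 0.652%, against 71.2 ± 0.319% over 8542 such genes, and it differed between libraries for 3 of the 25 members, against 8.99% of those genes.

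**Figure D4:**
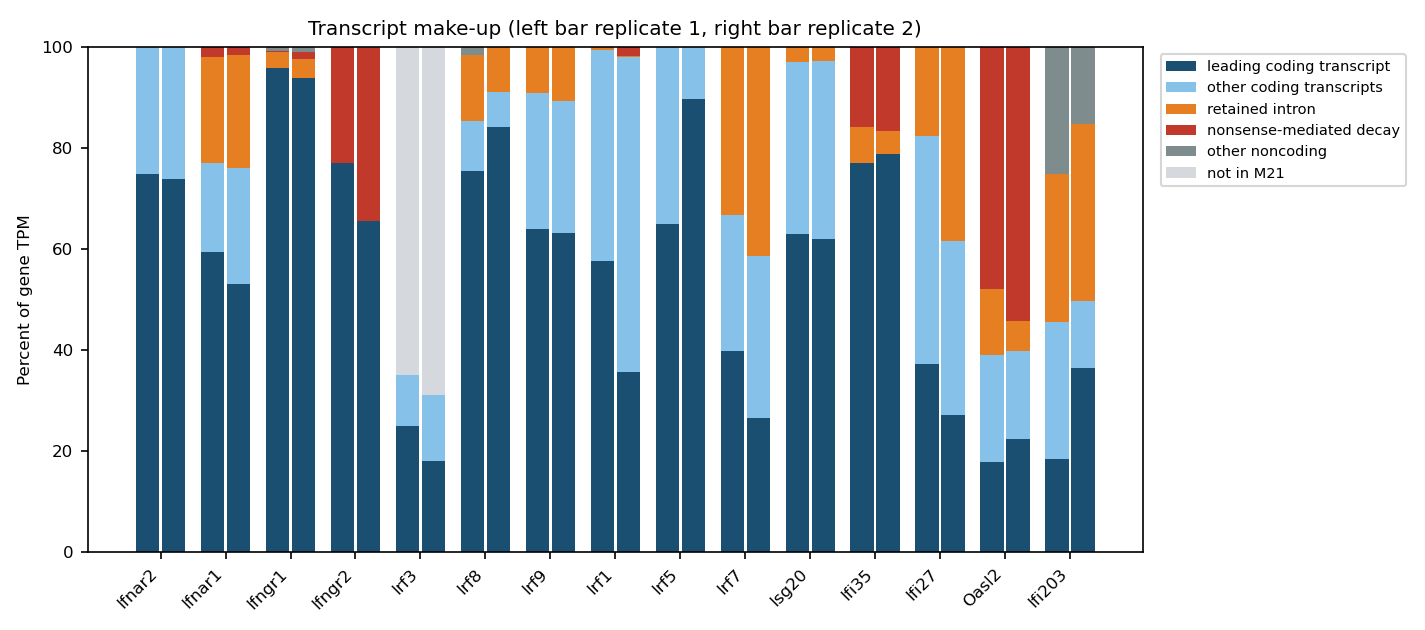
Share of each gene's TPM held by its annotated kinds of transcript, for 15 members, with replicate 1 as the left and replicate 2 as the right bar of each pair. Ifnar2 is made of coding transcripts only, with the leading one at 74.8% and 73.9%, while Oasl2 has its largest share, 47.9% and 54.3%, in a transcript annotated for nonsense-mediated decay.

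The Toll-like receptors stood near the limit of 1 TPM. The 5 of the cell surface had a median of 1.00 ± 0.0636 TPM and the 7 of endosomes one of 0.990 ± 0.184 TPM, and 4 of the 12 reached 1 TPM in both libraries. Tlr2, a sensor of bacterial lipoproteins, had 2.69 TPM in replicate 1 and 2.15 TPM in replicate 2, and Tlr4, the sensor of lipopolysaccharide, 2.48 and 2.22 TPM. Of the endosomal receptors, Tlr12, a mouse sensor of profilin from parasites, had 1.54 and 1.72 TPM and Tlr7, a sensor of single-stranded RNA, 1.10 and 1.35 TPM. Tlr9, the sensor of CpG DNA, was the lowest with counts, at 0.04 TPM in both. Tlr1, Tlr5, Tlr8 and Tlr13 passed 1 TPM in replicate 2 only.

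All 15 listed cofactors and adaptors of Toll-like receptors were expressed, with a median of 6.87 ± 0.799 TPM. Their range overlapped that of the receptors, since Cd14, Traf3 and Ticam2 stood below Tlr2 and Tlr4 by mean TPM. Hsp90b1, a chaperone of the endoplasmic reticulum with many other clients, had 278 TPM in replicate 1 and 262 TPM in replicate 2, and Unc93b1, which carries endosomal receptors out of that compartment, had 28.01 and 29.23 TPM. Of 12 cytosolic sensors and adaptors found, 8 were expressed. By mean TPM the highest were Mavs, the mitochondrial adaptor of the RNA sensors (25.62 and 27.92 TPM), and Eif2ak2, a kinase that binds double-stranded RNA (6.13 and 5.20 TPM).

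The IFITM genes, whose small membrane proteins hinder the entry of viruses, divided into 4 abundant and 3 low members. Together they made up 49.97 ± 1.25% of the members' TPM. Ifitm2 (chr7:140954837-140955987, GRCm38) was the highest of all members, with 359 TPM in replicate 1 and 415 TPM in replicate 2 (387 ± 39.7 TPM), above 99.04% of protein-coding genes. Ifitm3 (chr7:141009586-141010770), the member best known for restricting influenza virus, had 59.86 and 66.53 TPM (63.2 ± 4.72 TPM), or 0.163 ± 0.0046 of Ifitm2. Ifitm6 had 21.55 and 25.42 TPM (23.5 ± 2.74 TPM) and Ifitm1 13.56 and 13.35 TPM (13.5 ± 0.148 TPM). Ifitm10 stood at 1.84 and 1.42 TPM, Ifitm5, a gene of bone, at 0.43 and 0.22 TPM, and Ifitm7 at 0.06 and 0.10 TPM. All of them but Ifitm7 lie on chromosome 7.

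Ifitm2 shares sequence with other genes, and how much of its level this touches was not tested. Of the 100-nt stretches of its annotated transcripts, 34.9% also occur in another gene, chiefly Gm45717, a gene model that overlaps 40.9% of its exon bases on the same strand. Gm45717 has no level of its own in the deposited data. The processed pseudogenes Gm8865 and Gm11951, which share a few stretches, had 0.155 ± 0.0071 and 0.345 ± 0.0778 TPM.

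The Isg genes were all expressed. Isg20 (chr7:78913424-78920396), an exonuclease of single-stranded RNA, had 114 TPM in replicate 1 and 122 TPM in replicate 2 (118 ± 5.27 TPM), above 96.5% of protein-coding genes. Its leading transcripts, Isg20-203 with 62.5 ± 0.694% and Isg20-201 with 30.8 ± 0.269%, encode the same 181 amino acids. Isg20l2, a nucleolar relative that processes ribosomal RNA, had 15.41 and 15.00 TPM (15.2 ± 0.290 TPM), and it shares 7.16% of its stretches with its neighbour Rrnad1. Isg15, the ubiquitin-like modifier, had 6.11 and 5.29 TPM (5.70 ± 0.580 TPM), with 169 and 158 counts, and its promoter window holds 3 overlapping matches of the response element core.

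Of the other Ifi genes, 4 of 7 were expressed. Ifi35, a binding partner of the factor Nmi, had 19.76 TPM in replicate 1 and 23.13 TPM in replicate 2 (21.4 ± 2.38 TPM). Ifi27 had 14.39 and 18.30 TPM (16.3 ± 2.76 TPM) and its neighbour on chromosome 12, Ifi27l2a, 7.11 and 8.40 TPM (7.75 ± 0.912 TPM). Both encode small mitochondrial or nuclear membrane proteins, and the third gene of that 23.0-kb cluster, Ifi27l2b, stood at 0.05 and 0.27 TPM on 2 and 12 counts. Ifi47, an immunity-related GTPase, had 6.22 and 6.94 TPM (6.58 ± 0.509 TPM). Ifi44 stood at 0.32 and 0.51 TPM.

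The IFIT, OAS and p200 families, in which the response element core was found in 4 of 8 windows or a larger share, had medians below 1 TPM. The other Ifi genes, with the core in 2 of 4 windows, had a median of 6.58 ± 0.509 TPM. Within that group the core was in Ifi44 (0.32 and 0.51 TPM) and Ifi44l (no count). It was absent from the windows of Ifi47, the gene at the median, and Ifi35. The rest of the group had no window and could not be searched. These were Ifi27 (14.39 and 18.30 TPM), Ifi27l2a (7.11 and 8.40 TPM) and Ifi27l2b (0.05 and 0.27 TPM). The 6 IFIT genes, which bind foreign RNA and block its translation, lie within 99.3 kb on chromosome 19 and had a median of 0.492 ± 0.0248 TPM. Ifit2 led them at 2.78 TPM in replicate 1 and 2.45 TPM in replicate 2, Ifit3 had 1.00 and 1.63 TPM and Ifit1 0.71 and 0.67 TPM. The other 3, Ifit3b, Ifit1bl2 and Ifit1bl1, had means between 0.115 and 0.295 TPM. Ifit3 and Ifit3b share 31.7% and 27.4% of their stretches with each other, so the division of reads between them is uncertain.

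The 11 OAS genes, on chromosome 5, make or resemble enzymes that build 2′-5′-linked oligoadenylate, the signal that turns on RNase L. Their median was 0.370 ± 0.212 TPM and 2 were expressed. Oas1a had 2.16 TPM in replicate 1 and 2.43 TPM in replicate 2, and it shares 40.9% of its stretches with Oas1g, at 0.63 and 0.66 TPM. Oasl2 had 1.93 and 2.19 TPM, of which its coding transcripts held 39.4%. Oas2, Oas3, Oasl1, Oas1c and Oas1e had means of up to 0.540 TPM, and Oas1d, Oas1f and Oas1h had no count. Mx1, of the Mx GTPases, had 0.16 and 0.24 TPM, and Mx1-201, its transcript with the longest coding sequence (627 amino acids), had no count.

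The 11 genes of the p200 family, nucleic acid sensors and regulators of the AIM2-like kind, lie within 563.3 kb on chromosome 1. Their median was 0.610 ± 0.113 TPM and 4 were expressed. Ifi204 had 4.10 TPM in replicate 1 and 3.41 TPM in replicate 2, Ifi203 2.18 and 2.09 TPM, Ifi207 1.33 and 1.63 TPM and Ifi211 1.32 and 2.30 TPM. Ifi209, Ifi205, Ifi206, Ifi213, Ifi214 and Ifi208 had means between 0.025 and 0.845 TPM, and Ifi202b had no count. Ifi211 shares 56.9% of its stretches with Ifi205, Ifi204, Mndal and Ifi207, so its level, and those of its relatives, depend on how the reads were divided. Ifi44l, of the other Ifi genes, was the fifth member with no count, and for these 5 genes a count of 0 allows up to between 0.0371 and 0.184 TPM in replicate 1 and between 0.0343 and 0.170 TPM in replicate 2.

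Set against the promoter windows, 9 of the 30 members with a window and at 1 TPM or more in both libraries held the response element core (30.0%), and 17 of the 30 other members with a window held it (56.7%). Those 17 are not separate sequences, as they include the near copies Ifi206, Ifi208 and Ifi213 and the overlapping windows of Ifit1 and Ifit1bl2. They also include Oas1g and Ifit3b, whose stretches match those of Oas1a and Ifit3 on the other side of the split. Among protein-coding genes matched to a window by symbol, the shares were 8.44% of 8867 genes at that level and 10.9% of 7356 others. The core of the gamma-activated sequence stood the other way among the members, in 11 of the 30 at that level (36.7%) and 4 of the 30 others (13.3%), against 8.18% and 10.1% of those genes. Interferon-induced genes that the names do not cover were not uniformly low. Of 25 listed, 24 were expressed, with a median of 5.67 ± 0.658 TPM, led by Ly6e, a restriction factor of the cell surface (129 TPM in replicate 1 and 153 TPM in replicate 2), and Lgals3bp, a secreted glycoprotein (30.07 and 38.33 TPM). The list of brakes on the sensing of self nucleic acid holds 8 genes for proteins that remove or edit nucleic acid or its building blocks, and also Tmem173, an adaptor that relays DNA sensing and is no brake. All 9 were expressed, led by the lysosomal ribonuclease Rnaset2b (110 and 109.9 TPM) and Rnaseh2a, the catalytic chain of ribonuclease H2 (85.43 and 79.25 TPM).

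Levels of the members were close in the 2 libraries. Across the 71 genes, which are not independent replicates, log2(TPM + 1) had a Pearson correlation of 0.996 between libraries, against 0.997 across protein-coding genes, a value carried by the wide range of levels. The Spearman correlation across the 71 was 0.985. Of the 58 members with a mean of 10 or more expected counts, none was 1.5-fold or more higher in replicate 1, against 0.437% of 16258 genes, and none was in replicate 2, against 1.46%. With shares that low in the background, a count of 0 among 58 is not a result about the members. The median centred log2 ratio, replicate 1 over replicate 2, was -0.10 over the members, with 41 below 0 and 17 above, against -0.01 over all 16258 genes, with 8421 below 0 and 7836 above.

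On the TPM + 1 scale the widest ratios were in p200 genes with few counts. Ifi211 had a centred log2 ratio of -0.49 on the TPM + 1 scale, on 94.0 reads in replicate 1 and 177 in replicate 2 (expected counts), and Ifi206 one of 0.40, on 26.6 and 8 reads. The added 1 TPM shrinks ratios of low genes. From the counts alone, scaled to the libraries, Ifi211 was 0.583 times as high in replicate 1 (95% exact counting interval 0.449 to 0.753) and Oas3 0.465 times (0.331 to 0.646), and Ifit1bl2, on 11.4 and 37.8 counts, 0.318 times (0.146 to 0.634), while Ifi206 was 3.70 times as high (1.64 to 9.43). Such intervals cover counting error only. Among the 21 members at 5 TPM or more, the centred log2 ratio ran between -0.31 (Ifi27) and 0.26 (Irf8).

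**Figure D5:**
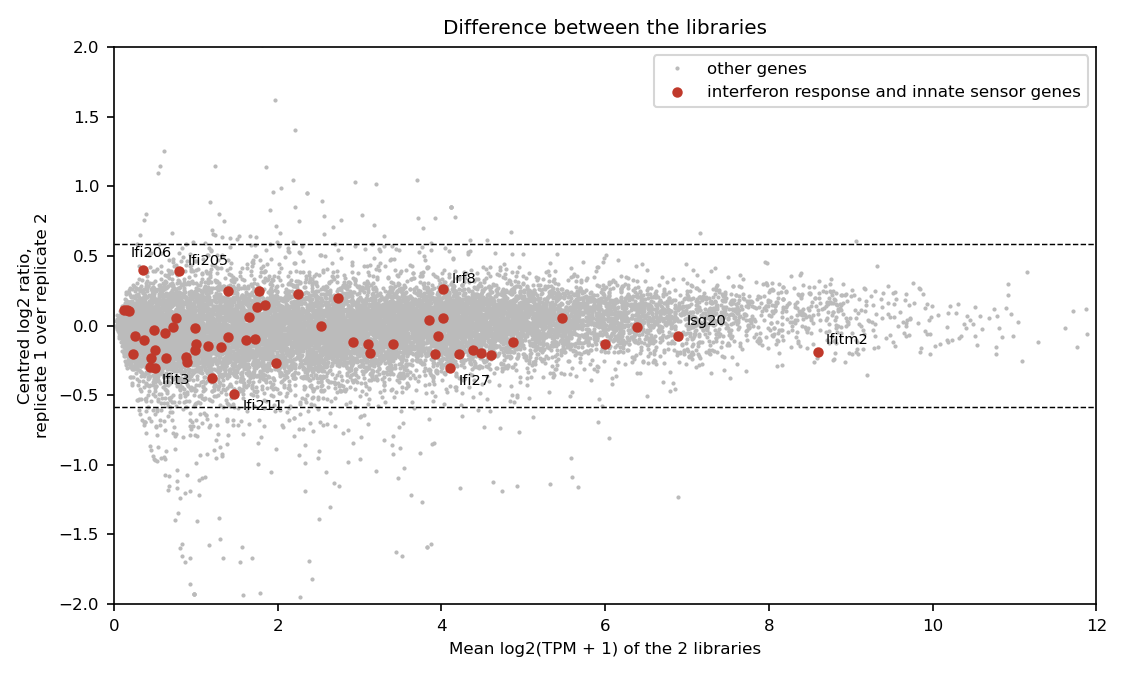
Centred log2 ratio of TPM + 1, replicate 1 over replicate 2, against the mean log2(TPM + 1), for genes with 10 or more mean expected counts, members in red and other genes in grey. The dashed lines mark 1.5-fold, and 39 other genes lie outside the axes. No member passes a dashed line, and Ifi211 at -0.49 is the nearest.

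Reads of 34 members could in part come from another gene, as they share at least 1 stretch of 100 nt with it in the annotated transcripts, and all 23 members whose expected counts were not whole were among these. Exons of 18 members overlap those of another gene, and as the labels name no strand-specific step, a read in such an overlap cannot be assigned to 1 of the 2 genes by strand. Among members at 5 TPM or more, Irf5 shares 7.52% of its stretches with Tnpo3 (25.8 ± 0.665 TPM) and Ifi35 5.16% with the antisense gene Gm11626, which had no count. The 4 genes left out for their annotation were Ifi30, a lysosomal thiol reductase typed as a processed transcript in the release used, at 45.97 TPM in replicate 1 and 43.70 TPM in replicate 2, Oas1b at 0.31 and 0.82 TPM, Mx2 at 0.11 and 0.19 TPM and Ifi203-ps at 0.05 and 0.21 TPM.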

How the data were processed

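Each library came with a gene table and a transcript table that the authors deposited; per the file headers and the labels they rest on mm10 and GENCODE M4. Their columns are named as RSEM names them. No aligner and no program version was given in the sources used. The deposited expected counts are estimates of reads per gene, with reads common to several transcripts split among these. The deposited TPM sums over every row, including spike-ins, and a posterior mean TPM is a second deposited estimate. Transcript shares were recomputed from TPM and not taken from the deposited percent column. The deposited interval bounds of TPM, read as a signal, state no level, and those of 13 members did not overlap between libraries. The share over all genes was not counted, so the 13 are not a result about the members.

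Symbols, gene types and coordinates came from GENCODE M21 (GRCm38, the build called mm10), matched without version for 42462 of 43346 Ensembl genes (98.0%), and promoters from RefSeq. A gene was called expressed at 1 TPM in both libraries. The log2 ratio used a pseudocount of 1 TPM and was centred on genes with a mean of 100 or more expected counts. Counts were called whole at a tolerance of 0.01, and effective lengths were lengths less 99 nt. Shared stretches were exact 100-nt matches among M21 transcripts, on either strand. Counting intervals were exact Clopper-Pearson at 95%, and a count of 0 was taken to allow 3 counts. No test was run, as there is 1 group of 2 libraries. The ratio was checked on simulated data, with changes larger than 1.5-fold planted in genes more abundant than most members. That check does not bear on members at low levels.

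Members at 5 TPM or more in both libraries were described one by one, and the others named were chosen with their values in view. The values of 1 member and of 1 listed gene are not reported here, while counts and medians include them. The members and lists were chosen with earlier results of these data known. Alternatives included scaling by DESeq2 1.42.0 size factors or by edgeR 4.0.16 TMM factors (R 4.3.3, counts rounded). The remaining steps ran in python 3.11.15 (pandas 2.3.3, numpy 2.4.6, matplotlib 3.10.9, scipy 1.17.1).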

Additional observations from a re-analysis of the deposited data

How the results depend on the processing

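The count of expressed members, 36, was 21 at a threshold of 5 TPM and 55 at 10 or more expected counts in both libraries, and 36 to 41 with 1 library left out. The median level, 1.18 TPM, was 1.47 TPM by the posterior mean, 2.25 TPM rescaled over nuclear coding genes without globins and 2.11 TPM over members with 10 or more mean counts, and 1.00 to 1.35 TPM with 1 library left out. The members' share of protein-coding TPM, 0.111%, was 0.0979% over all rows and 0.181% without globins, and 0.105 to 0.117% with 1 library left out. The leading transcript share was 73.9 to 74.8% with 1 library left out. The 0 of 58 members past 1.5-fold became 8 with a pseudocount of 0.1 TPM, where 8.37% of all genes were called. Ifi205 and Ifi206 were then higher in replicate 1, and Irf4, Ifi211, Oas3, Oasl1, Ifit1bl2 and Ifit3 higher in replicate 2. The count became 1 (Oas3) with TMM or with DESeq2 scaling, against 2.28% and 2.24% of all genes. With spike-in scaling the count became 5, against 6.55% of all genes. The median ratio, -0.10, was -0.14 with that pseudocount and 0.24 with spike-in scaling, which moved the median of all genes to 0.33. By expected counts, which are not per length, Ifnar1 was 0.560 of Ifnar2 and Ifngr1 2.01 times Ifngr2. No paired analysis was possible because the 2 libraries form 1 group.

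With 2 libraries per level, an SD rests on 1 difference. Genes under 10 counts, 13 of the members, were too shallow for a ratio.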
